A study of Mus musculus with 16 samples.

Results

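The response of the mouse cerebellum to nicotinamide riboside (NR) that wild-type (WT) and Atm-deficient (Atm-/-) mice have in common was measured over all 16 of the 16 arrays of the series, as the difference between 8 NR arrays and 8 vehicle (veh) arrays with genotype as an additive term. The mice came from the stock B6;129S4-Atmtm1Bal/J, which carries a targeted Atm allele in every cell of the body, and the WT mice were littermates of the homozygotes. The 4 groups, with 4 mice each, combine both genotypes with both treatments and are called WT veh, Atm-/- veh, WT NR and Atm-/- NR. NR was dissolved in the drinking water at 3.5 mg/ml (12 mM) from 6 weeks of age for 2 months, vehicle mice drank plain water, and the labels give all mice as male and 3.5 months old. RNA came from 20 mg of cerebellar cortex of each mouse, labelled with Cy3 and hybridised to an Agilent 1-colour array, on which a brighter spot means that its probe captured more labelled RNA.

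NAD is the electron carrier of glycolysis, the TCA cycle and the respiratory chain, and it is also used up as a substrate by sirtuins, PARPs and the hydrolases CD38 and SARM1. NR is a form of vitamin B3 that the kinases Nmrk1 and Nmrk2 phosphorylate to nicotinamide mononucleotide, which the Nmnat enzymes turn into NAD. Atm is a kinase that responds to DNA breaks, and its loss causes ataxia-telangiectasia, in which the Purkinje and granule cells of the cerebellum degenerate.

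Cerebellar markers were detected in every group, which does not exclude other tissue. Of 20 Purkinje cell markers and 18 granule cell markers, all were detected on all 16 arrays, and the Purkinje list averaged between 14.49 and 15.11 and the granule list between 14.43 and 15.01 on the log2 scale of quantile-normalized signal. The brightest Atm probe, whose place relative to the targeted part of the gene is not given in the sources used here, was between 8.88 and 9.27 on the WT arrays. It was between 8.61 and 8.82 on 7 Atm-/- arrays and at 9.23 on Atm-/- NR 2, so it does not separate the genotypes fully. Its NR change was -0.05 ± 0.08 (SE, limma adjusted p = 0.729), and a second Atm probe gave -0.20 ± 0.06 (limma adjusted p = 0.0412). Some arrays stood apart. On both slides, veh arrays lay in row 1 and NR arrays in row 2, so row and treatment cannot be told apart, nor can slide and genotype. NR arrays had between 150 and 226 spots marked as not uniform, against between 8 and 82 on veh arrays. The number of probes well above background was between 37843 and 42559 (median 40143.5) in veh and between 34945 and 40010 (median 37094.5) in NR. Their mean difference of -3066 probes passed an exact permutation test within genotype (two-sided p = 0.00735, where 4900 labelings allow no p below 0.000408). On 4 arrays, 3 of them NR (WT NR 1, WT NR 4 and Atm-/- NR 4) and 1 veh (Atm-/- veh 3), 0 of 4 probes of Y-linked genes were well above background and Xist was, against the male label. The 4 arrays WT NR 2, WT NR 3, Atm-/- NR 2 and Atm-/- NR 3 shared high levels of genes of other brain regions, described below with Foxp2. Some lists of other tissues also reached high levels in veh. The forebrain list averaged 10.66 on its highest veh array (veh median 6.53, NR highest 8.74). The list of choroid plexus and ependyma reached 11.98 in veh (veh median 9.15, NR highest 10.14). That of red blood cells reached 15.69 (veh median 13.40, NR highest 13.635).

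**Figure D1:**
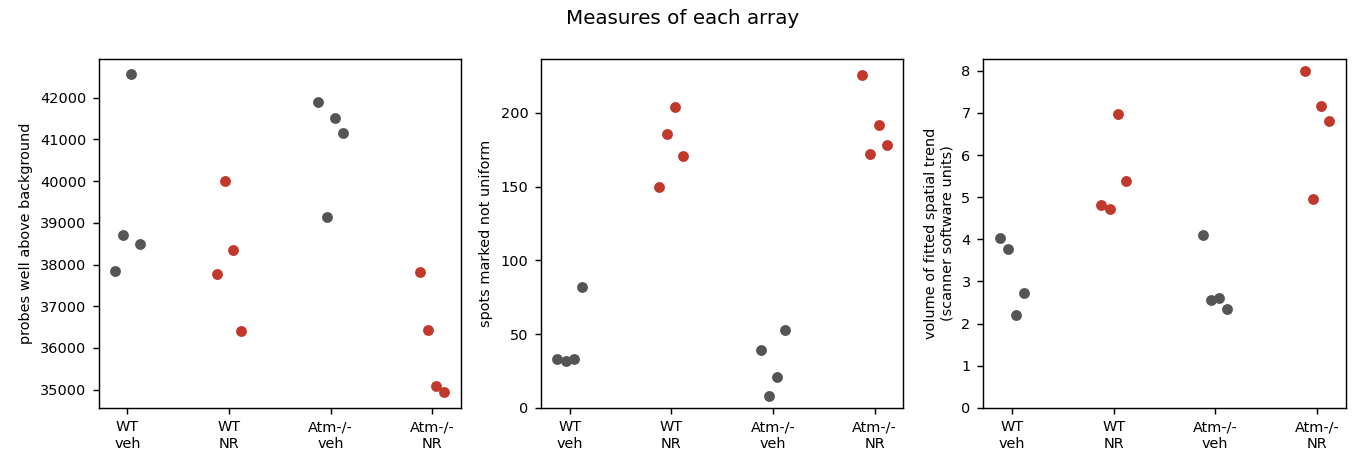
Scanner measures of each array by treatment, with 1 point for each of the 16 arrays: the number of probes well above background, the number of spots marked as not uniform and the volume of the spatial trend fitted by the scanner software. Spots marked as not uniform numbered 8 to 82 on veh arrays and 150 to 226 on NR arrays, so the treatments did not overlap in this measure.

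Many genes differed by small amounts between NR and veh arrays. At a Benjamini-Hochberg adjusted p under 0.05, limma called 3699 of 37253 probes (9.93%), 1835 higher and 1864 lower in NR. The median size of a called change was 0.33 on the log2 scale. Only 119 called probes (86 higher, 33 lower) changed by more than 1, and 2836 (76.7%) by less than 0.5. With each gene represented by its brightest probe, 2067 of 16737 genes (12.3%) were called, 1129 higher (6.75%) and 938 lower (5.6%), and these shares are the background for the gene groups below. Here p-values measure the spread between mice of this series. Without the 4 arrays that lacked Y-gene signal, 2527 probes were called. Without NR arrays 2 and 3 of each genotype, which leaves 4 NR arrays against 8 veh arrays, 0 were (smallest limma adjusted p = 0.0632, 5936 probes at an unadjusted p under 0.05). All 3699 called changes kept their sign in both cases, and their median size was 0.36 without the first set of arrays and 0.30 without the second. They were chosen on all arrays, those kept here included, so the kept signs are no independent support.

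**Figure D2:**
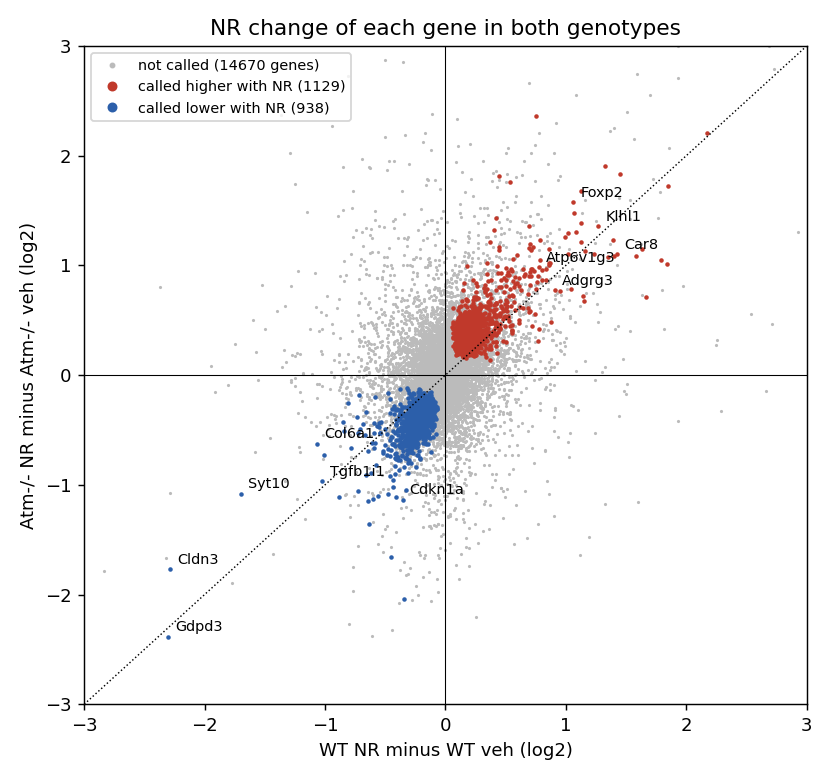
NR minus veh log2 change of each gene in WT (x axis) and in Atm-/- (y axis), by the brightest probe, with genes called higher and lower by the additive model in colour. Called genes lie in the quadrants where both genotypes have the same sign, and most lie nearer to the Atm-/- axis. 11 genes lie outside the axes.

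No probe differed in its NR effect between the genotypes at an adjusted p under 0.05 (0 of 37253, 0%, limma, smallest adjusted p = 0.839), and 1962 did at an unadjusted p under 0.05. The 2 genotypes share no arrays, and 69.7% of all probes changed in the same direction in both. Among the 500 probes with the smallest p in WT alone, 450 (90%) had the same sign in Atm-/-, and among the 500 with the smallest p in Atm-/- alone, 478 (95.6%) had the same sign in WT. In both genotypes the NR arrays lay in row 2 of the slide, and NR arrays 2 and 3 shared high levels of genes of other brain regions. The part of either in this agreement was not tested. All 3699 called probes had the same sign in both genotypes, a count that the additive model itself favours. Their changes were larger in Atm-/- for 3263 (88.2%), with a median size of 0.24 in WT and 0.43 in Atm-/-, against 0.12 and 0.21 over all probes. Of the called probes, 559 (15.1%) had an unadjusted interaction p under 0.05, against 5.27% of all probes. In 645 probes (1.73%) the NR and veh arrays did not overlap within either genotype, in the same direction, and in 2 probes they did not overlap in opposite directions. Within WT alone limma called 0 probes (2349 at an unadjusted p under 0.05), and within Atm-/- alone 2521.

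Car8, a carbonic anhydrase-related protein that binds the IP3 receptor in Purkinje cells and has no enzyme activity of its own, had the clearest large rise. On the log2 scale its level was 12.65 at the lowest, 13.85 at the median and 14.19 at the highest in the 8 veh arrays, and 14.81, 15.02 and 15.05 in the 8 NR arrays. The groups did not overlap, and the NR arrays lay within a much narrower range than the veh arrays. The rise was 1.33 ± 0.17 (SE, 2.52-fold, limma adjusted p = 0.00433), 1.47 in WT and 1.20 in Atm-/-, and a second probe rose by 1.26 ± 0.22 (limma adjusted p = 0.00797). The change was 1.38 without NR arrays 2 and 3 (limma adjusted p = 0.101). Over the 16 arrays the named gene whose level ran most like that of Car8 was the lncRNA 4930412C18Rik, with a Pearson r of 0.93, which lies on chromosome 4 with 4 measured genes between it and Car8. Its level was between 5.59 and 7.57 (median 7.27) in veh and between 7.997 and 8.55 (median 8.37) in NR, again without overlap, a rise of 1.25 ± 0.21 (limma adjusted p = 0.00723).

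Of the 20 Purkinje markers, 2 were called higher (Car8 and Foxp2) and 0 lower, a share of 10% that is near the 12.3% of all genes, and the median change of the list was 0.04, against 0.01 over all genes. Pcp2, a regulator of G protein signalling found in Purkinje cells, changed by -0.07 ± 0.09 (limma adjusted p = 0.641), Calb1, a calcium buffer, by 0.03 ± 0.12 (limma adjusted p = 0.912), and Itpr1, the IP3 receptor that Car8 binds, by 0.08 ± 0.06 (limma adjusted p = 0.431). In bulk tissue, fewer cells of a type and less RNA per cell cannot be told apart. Of 14 carbonic anhydrases, 1 was called, Car8 itself. Of 17 genes of calcium release and Purkinje signalling, the other called gene was Stim1, the calcium sensor of the endoplasmic reticulum, which rose by 0.23 on its brightest probe, whereas its other probes gave 0.02 and 0.13. Stim1 gave 0.27 on arrays with Y-gene signal (limma adjusted p = 0.0621).

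**Figure D3:**
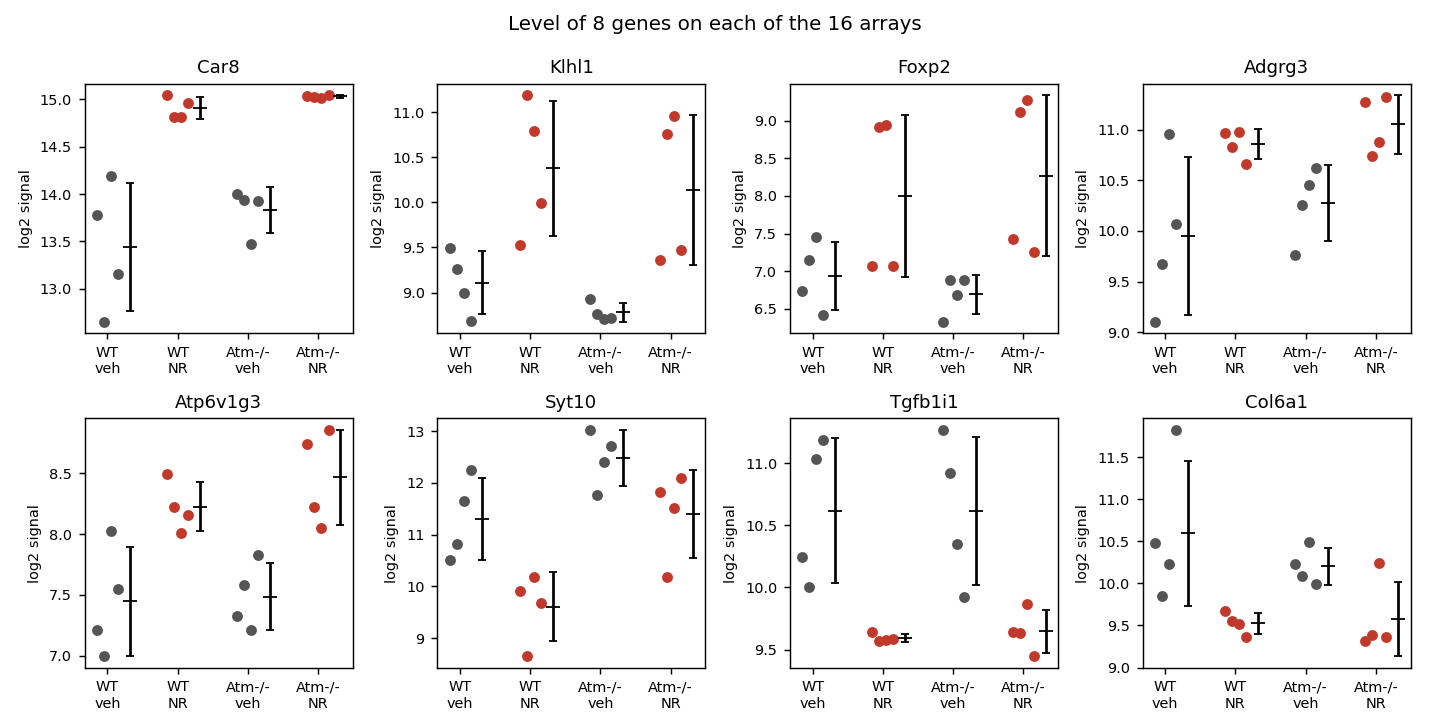
Log2 level of 8 genes on each array, with points for arrays and black marks for the mean ± SD of each group of 4. Car8 was between 12.65 and 14.19 on all veh arrays and between 14.81 and 15.05 on all NR arrays, whereas the veh and NR arrays of Foxp2 and Syt10 overlapped.

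Foxp2, a transcription factor of Purkinje cells, the thalamus and other regions, was between 6.33 and 7.45 (median 6.81) in veh and between 7.06 and 9.28 (median 8.17) in NR. It rose by 1.32 ± 0.37 (limma adjusted p = 0.0367). Klhl1, an actin-binding Kelch protein of the brain, was between 8.68 and 9.50 (median 8.85) in veh and between 9.37 and 11.19 (median 10.37) in NR, a rise of 1.31 ± 0.27 (limma adjusted p = 0.0126). Both were highest on NR arrays 2 and 3 of each genotype: Foxp2 was between 8.92 and 9.28 on those 4 arrays and between 7.06 and 7.43 on the other 4 NR arrays, and Klhl1 between 10.75 and 11.19 and between 9.37 and 9.99. Tcf7l2, a transcription factor high in the thalamus, was between 13.51 and 13.80 on those 4 arrays and between 9.57 and 10.12 on the other 12. The same 4 arrays were the highest for Lhx9 (10.69 to 11.07, against 4.12 to 8.57), for Six3 (9.14 to 9.71, against 3.29 to 6.09) and for Slc17a6, the vesicular glutamate transporter of thalamus and brainstem (12.19 to 12.75, against 5.25 to 11.28). These genes were picked after their values were seen. In all, 381 probes were higher and 166 lower on these 4 arrays than on every other array, and 20 of the former were higher by more than 1. Without the 4 arrays the change was 0.39 for Foxp2 (limma adjusted p = 0.352) and 0.65 for Klhl1 (limma adjusted p = 0.113). The part of the dissected region in these changes was not tested.

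Several of the other largest rises among probes well above background on all arrays were in genes with a low level. Gm31711, a lncRNA, rose from between 8.05 and 9.16 to between 9.57 and 10.24, without overlap, a change of 1.14 ± 0.15 (limma adjusted p = 0.00433). The lncRNA 4930447K03Rik rose by 1.31 ± 0.25 (limma adjusted p = 0.0105), also without overlap. Prph, an intermediate filament of peripheral and brainstem neurons, and Amhr2, the receptor of anti-Müllerian hormone, rose by 1.19 and 1.22, with the highest Amhr2 value on WT NR 4. The brightest Amhr2 probe gave 0.59 (limma adjusted p = 0.0841) and the remaining one 0.09. Prph gave 1.29 (limma adjusted p = 0.0724) and Amhr2 0.77 (limma adjusted p = 0.0619) on arrays with Y-gene signal. Among the 1017 lncRNA genes measured, 68 were called higher and 17 lower (8.36%). The 10 largest rises among called probes with a gene name and the same sign in both genotypes were dimmer still: the probe of Chdh, choline dehydrogenase, was detected on 5 of 8 veh arrays and 7 of 8 NR arrays, and that of Pax7, a transcription factor, on 3 and 7. The Pax7 probe thus passed the filter only through an NR group. A brighter Chdh probe, detected on all 16 arrays, gave 0.31 (limma adjusted p = 0.536). Olfactory receptors, most of which lie near background here, had 15 of 200 called higher and 1 lower (8.0%), with Olfr1375 and Olfr1198 up by 1.43 and 1.25. Olfr1375 gave 1.08 on the arrays with Y-gene signal (limma adjusted p = 0.0895). With genes split by mean level into dim, middle and bright groups of 5579 each, 5.47% of the dim, 14.4% of the middle and 17.1% of the bright genes were called. Of the bright genes 10.8% were called higher and 6.33% lower, and of the dim genes 2.98% and 2.49%.

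Some smaller rises left the groups fully apart. Spock3, a secreted proteoglycan of the brain, lay between 12.13 and 12.45 (median 12.29) in veh and between 12.61 and 12.84 (median 12.71) in NR. The groups did not overlap, and the rise of 0.42 ± 0.05 shared the smallest adjusted p with the falls of Taok2 and 2610035D17Rik (limma adjusted p = 0.00342). Luzp1, a cytoskeletal leucine zipper protein, rose by 0.40, with 2 of its 4 probes called, but its brightest probe gave 0.05 (limma adjusted p = 0.636). Otud6b, a deubiquitinase, rose by 0.52, where its second probe gave 0.03. Luzp1 and Otud6b were without overlap between NR and veh on the probe with the smallest p. On these probes the changes of Spock3, Luzp1 and Otud6b had the same sign in both genotypes and were larger in Atm-/- than in WT.

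Genes that fell were led by Gdpd3, a lysophospholipase D, and Cldn3, a tight junction protein. Gdpd3 was between 6.13 and 10.36 (median 8.14) in veh and between 5.396 and 6.27 (median 5.86) in NR, and fell by 2.34 ± 0.70 (limma adjusted p = 0.0475), or gave -2.66 on the 12 arrays with Y-gene signal (limma adjusted p = 0.0907). Its veh arrays stood at separate levels: WT veh 3 and 4 and Atm-/- veh 1 and 2 were between 9.79 and 10.36, and the other 4 veh arrays between 6.13 and 6.49, close to the NR arrays. Tgfb1i1, a focal adhesion protein also called Hic-5, had its highest levels on the same 4 veh arrays (10.92 to 11.27). It was between 9.93 and 11.27 (median 10.63) in veh and between 9.45 and 9.87 (median 9.61) in NR, without overlap, and fell by 0.99 ± 0.19 (limma adjusted p = 0.0111), with a second probe down by 0.69. Over the 16 arrays, Gdpd3 ran most like Slx1b (Pearson r of -0.95) and Tgfb1i1 (r of 0.94), both on chromosome 7 like Gdpd3 itself, with 3 and 73 measured genes between. Of the 20 genes most like Gdpd3, 8 lie on chromosome 7. Slx1b, a subunit of a structure-specific nuclease, was between 10.95 and 11.33 on the 4 veh arrays where Gdpd3 was high and between 12.06 and 12.28 on the other 12.

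Cldn3 was between 5.39 and 8.75 (median 7.07) in veh and between 4.23 and 5.49 (median 5.002) in NR, and its probe was detected on 8 veh and 4 NR arrays. The fall of 2.03 ± 0.40 (limma adjusted p = 0.0113) left the groups apart within each genotype, though narrowly in WT (5.39 on WT veh 3, 5.37 on WT NR 3). The probe met the filter through the veh groups, where it is high, so this adjusted p is no independent support for the fall. Syt10, a synaptotagmin that acts as a calcium sensor of vesicle release, fell by 1.39 ± 0.33 (limma adjusted p = 0.0217), from between 10.504 and 13.03 (median 12.01) to between 8.64 and 12.09 (median 10.17). The groups overlapped, and a second Syt10 probe gave 0.21 (limma adjusted p = 0.451). Igf2, a growth factor made by the meninges and choroid plexus, fell by 1.05 on one probe (limma adjusted p = 0.0192), while its brightest probe gave -0.67 (limma adjusted p = 0.0527). On the arrays with Y-gene signal the first gave -1.03 (limma adjusted p = 0.0581). Hdhd5 fell by 0.89 ± 0.12 (limma adjusted p = 0.00518), and Col6a1, a chain of collagen VI, by 0.85 ± 0.23 (limma adjusted p = 0.0351). Col6a1 gave -0.74 on the arrays with Y-gene signal (limma adjusted p = 0.161). The probe of the lncRNA D030025P21Rik was not well above background on any NR array, and was at least 1.22-fold lower there (limma adjusted p = 0.0198). It was detected on 6 veh arrays and so passed the filter only through a veh group. Its adjusted p is therefore no independent support for the fall.

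Falls of smaller size but without overlap were seen in Taok2, a kinase of neurite growth, in Fam122a, an inhibitor of protein phosphatase 2A, in Gps2, a subunit of a corepressor complex, and in Fpgs, the enzyme that adds glutamate to folates. Taok2 fell from between 8.63 and 9.04 to between 8.11 and 8.38, by 0.58 ± 0.07 (limma adjusted p = 0.00342), but its brightest probe gave 0.01 (limma adjusted p = 0.9). Fam122a fell from between 10.54 and 11.05 to between 10.11 and 10.40, by 0.57 ± 0.07 (limma adjusted p = 0.00433). Gps2 fell on both of its probes, by 0.57 and 0.38. Fpgs fell by 0.48, and its brightest probe gave -0.18. Probes of 1 gene differed often: of 916 called genes with more than 1 measured probe, 554 (60.5%) had the same sign on all of them.

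Enzymes of the TCA cycle were called in the higher direction alone. Of 19 measured genes, which include the pyruvate dehydrogenase complex that feeds the cycle, 7 were called higher and 0 lower (36.8%, against 17.1% of bright genes), and the other 12 kept the median of the list near that of all genes (0.04, against 0.01). Pdhb, a subunit of pyruvate dehydrogenase, was between 15.52 and 15.81 (median 15.63) in veh and between 15.92 and 16.11 (median 16.03) in NR, without overlap. It rose by 0.38 ± 0.06 (limma adjusted p = 0.00644). Fh1, fumarase, rose without overlap from between 14.29 and 14.66 to between 14.67 and 15.01, by 0.38 ± 0.07 (limma adjusted p = 0.0111). Sucla2, a subunit of succinyl-CoA synthetase, rose by 0.33, Mdh1, the cytosolic malate dehydrogenase, by 0.31, Mdh2, its mitochondrial form, by 0.24, Pdhx, a pyruvate dehydrogenase subunit, by 0.23, and Dlst, a subunit of the 2-oxoglutarate dehydrogenase, by 0.19. A second Mdh1 probe gave 0.07. Idh3b, a subunit of isocitrate dehydrogenase with the smallest p among those not called, gave -0.16 ± 0.06 (limma adjusted p = 0.117). On arrays with Y-gene signal 5 of the 19 were called higher. Without NR arrays 2 and 3, 0 were, and the 7 genes had a median change of 0.28 there, against 0.31 over all arrays. The 7 were chosen on all arrays, those kept here included.

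Of 74 measured subunits of the respiratory chain, 13 were called higher and 0 lower, with a median change of 0.09 over the 74. Of the 74, 58 lay above 0 and 16 below. The share called (17.6%) is near that of all bright genes (17.1%). The called genes were Ndufa1, Ndufa4, Ndufa8, Ndufb3, Ndufb4, Ndufb5 and Ndufb6, by gene family subunits of NADH dehydrogenase (Ndufa4 is now counted with cytochrome c oxidase), Uqcrfs1 and Uqcrq of the cytochrome bc1 complex, Cox6c of cytochrome c oxidase, and Atp5c1, Atp5g3 and Atp5h of the ATP synthase. Ndufa4 was between 15.97 and 16.50 (median 16.34) in veh and between 16.52 and 16.74 (median 16.65) in NR, without overlap, a rise of 0.32 ± 0.06 (limma adjusted p = 0.0114). Atp5c1, the gamma subunit of the ATP synthase, rose without overlap from between 16.73 and 17.01 to between 17.04 and 17.19, by 0.24 ± 0.05 (limma adjusted p = 0.0172). On arrays with Y-gene signal 2 of the 74 were called, while Ndufa4 gave 0.31 (limma adjusted p = 0.0524) and Atp5c1 0.24 (limma adjusted p = 0.0586). Without NR arrays 2 and 3, 0 were, with a median of 0.12 over the list.

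**Figure D4:**
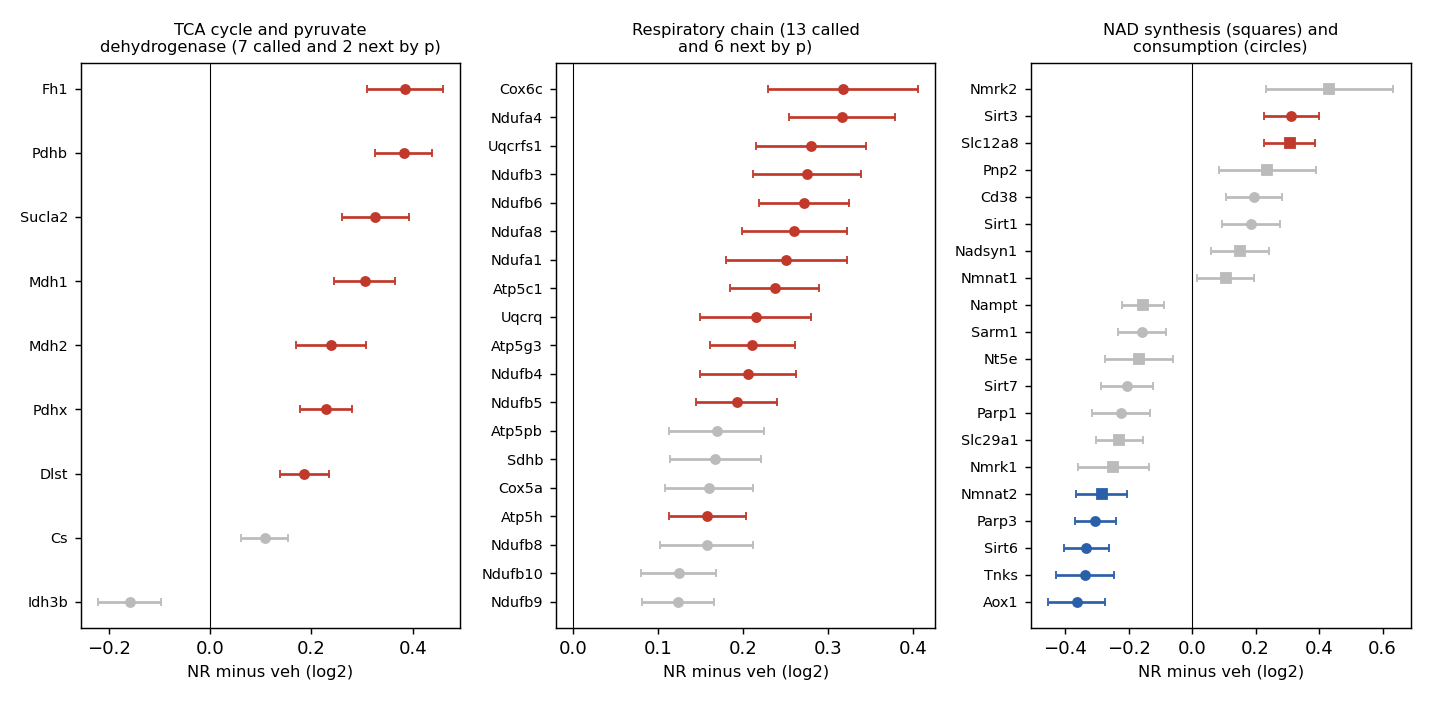
NR minus veh log2 change over both genotypes for genes of the TCA cycle, the respiratory chain, NAD synthesis and NAD consumption, with bars for the standard error. Called genes of the first 2 groups are shown with the next by p (2 and 6 genes), and the 10 with the smallest p of each NAD group. Red points were called higher, blue points lower and grey points neither. The 7 called TCA genes and the 13 called respiratory chain genes all lie above 0. Of the 5 called genes of the NAD consumption group, 4 lie below it.

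Of 20 measured genes that make or carry NAD and its precursors, 1 was called higher and 1 lower, a share of 10% that is near the 12.3% of all genes, and the median was -0.01. Slc12a8, which has been described as a transporter of nicotinamide mononucleotide, was between 13.08 and 13.59 (median 13.42) in veh and between 13.57 and 13.95 (median 13.63) in NR, and rose by 0.31 ± 0.08 (limma adjusted p = 0.0288), but gave 0.26 on the arrays with Y-gene signal (limma adjusted p = 0.104). Nmnat2, the axonal enzyme of the last step, fell by 0.28 ± 0.08 (limma adjusted p = 0.0394), from between 10.45 and 11.17 to between 10.19 and 10.77. The NR kinases gave -0.25 ± 0.11 for Nmrk1 (limma adjusted p = 0.167) and 0.43 ± 0.20 for Nmrk2 (limma adjusted p = 0.18). Nampt, the rate-limiting enzyme of salvage from nicotinamide, gave -0.15 ± 0.07 (limma adjusted p = 0.149).

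Of 17 genes whose products consume or convert NAD or its breakdown products, 1 was called higher and 4 lower, with a median of -0.11. The share called was 29.4%, against 12.3% of all genes. Sirt3, the main deacetylase of mitochondria, rose by 0.31 ± 0.09 (limma adjusted p = 0.0349). Sirt6, a nuclear sirtuin, was between 10.90 and 11.41 (median 11.08) in veh and between 10.63 and 11.01 (median 10.80) in NR, and fell by 0.33 ± 0.07 (limma adjusted p = 0.0148). Parp3, which acts in the repair of DNA breaks, fell by 0.30 ± 0.06 (limma adjusted p = 0.014), and Tnks, tankyrase, by 0.34 ± 0.09 (limma adjusted p = 0.0318), where a second probe gave 0.05. Aox1, which oxidises nicotinamide metabolites, fell by 0.36 ± 0.09 (limma adjusted p = 0.024), with -0.31 on the arrays with Y-gene signal (limma adjusted p = 0.0878). Sirt1, Parp1, Cd38 and Sarm1 gave 0.19, -0.22, 0.20 and -0.16, with limma adjusted p between 0.126 and 0.205. On arrays with Y-gene signal 1 of the 17 was called higher and 3 lower.

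Genes of other mitochondrial programmes were called at shares near the background. Of 78 genes of the mitochondrial ribosome, 8 were higher and 3 lower, among them Mrpl1 and Mrpl27 up by 0.29 and 0.28 and Mrps27 down by 0.26. Gabpa, a transcription factor of nuclear genes for mitochondrial proteins, was the 1 called gene of 12 for mitochondrial biogenesis and rose by 0.28. In the mitochondrial unfolded protein response 2 of 15 were higher, the protease Afg3l2 by 0.33 and the chaperonin Hspe1 by 0.22. For mitophagy, 2 of 24 were higher and 2 lower, with Atg12, of the autophagosome conjugation system, up by 0.34 and Fkbp8, a mitophagy receptor, down by 0.30. Without the arrays that lacked Y-gene signal, Gabpa, Hspe1 and Atg12 gave 0.26, 0.16 and 0.29, with limma adjusted p between 0.111 and 0.154. Other probes of Mrpl27 gave 0.03.

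Protein turnover genes held 10 of 39 called higher and 3 lower under names of the proteasome, a share of 33.3% against 12.3% of all genes and 17.1% of bright genes, with a median change of 0.07. Psmd6, a subunit of the regulatory particle, was between 14.30 and 14.70 (median 14.51) in veh and between 14.69 and 14.998 (median 14.88) in NR and rose by 0.36 ± 0.07 on its brightest probe (limma adjusted p = 0.0105). The other 2 Psmd6 probes gave -0.10 and -0.07, and neither was called (limma adjusted p = 0.203 and 0.447). The core subunits Psma2, Psma5, Psma6 and Psma7 rose by between 0.22 and 0.23, and Psmb7, another, fell by 0.26. Of the 10, Psmc3ip entered the list by its name and is a recombination cofactor, and Psmd10 is an assembly chaperone. On arrays with Y-gene signal 5 of the 39 were called higher and 0 lower. The cytosolic ribosome had 6 of 81 higher and 2 lower (9.88%), and the heat shock proteins 3 of 21 higher and 1 lower (19%). Hsp90aa1, a cytosolic chaperone, rose by 0.30 and Hsf1, the transcription factor that induces such chaperones, fell by 0.27. Hsp90aa1 gave 0.25 on arrays with Y-gene signal (limma adjusted p = 0.0506).

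The V-ATPase, the proton pump of lysosomes and synaptic vesicles, had 2 of 19 subunits called higher and 4 lower. Its share called was 31.6%, against 12.3% of all genes and 17.1% of bright genes. Atp6v1g3, a subunit known from kidney, was between 6.996 and 8.03 (median 7.44) in veh and between 8.01 and 8.85 (median 8.22) in NR, and rose by 0.88 ± 0.16 (limma adjusted p = 0.00944). The membrane subunits Atp6v0a1, Atp6v0b, Atp6v0c and Atp6v0d1 fell by between 0.16 and 0.35, and Atp6v0a2 rose by 0.17. A dimmer Atp6v0a1 probe rose by 0.40 (limma adjusted p = 0.0419). Atp6v1g3 is 1 of 11 genes that the text of the study names from these arrays, of which 2 were called here by their brightest probe. The other is Adgrg3, an adhesion G protein-coupled receptor, which was between 9.11 and 10.96 (median 10.16) in veh and between 10.66 and 11.32 (median 10.92) in NR, and rose by 0.84 ± 0.21 (limma adjusted p = 0.0246). On the arrays with Y-gene signal Adgrg3 also gave 0.84 (limma adjusted p = 0.0873). The study names Pstpip2, Atp6v1g3 and Adgrg3 for WT NR against WT veh. It names the rest of the 11 for Atm-/- veh against WT veh, not for NR. Pstpip2 gave 0.51 here (limma adjusted p = 0.12). All 11 were chosen on the same arrays, so this count is no independent evidence.

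Genes of excitability were called at shares below the 12.3% of all genes. Of 74 genes named as potassium channels or their subunits, 6 were called higher and 1 lower (9.46%), with a median of 0.06. Kcna1, a Kv1 channel of basket cell terminals, was between 14.89 and 15.55 (median 15.09) in veh and between 15.28 and 15.67 (median 15.47) in NR and rose by 0.37 ± 0.08 (limma adjusted p = 0.0131). Kcnk13 rose by 0.64 and Kcnj2, an inward rectifier, by 0.71. Kcnj2 was among the genes highest on NR arrays 2 and 3 (11.21 to 11.32, against 9.85 to 10.84 on the other 12), and gave 0.41 without them (limma adjusted p = 0.256). Of 42 glutamate and GABA receptor genes, 1 was higher and 2 lower (7.14%). Gabra4 rose by 0.43, and Grin1, the obligatory NMDA receptor subunit, and Grik5 fell by 0.39 and 0.36. The second Grik5 probe gave 0.07, and on arrays with Y-gene signal Grik5 gave -0.31 (limma adjusted p = 0.151).

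Granule cell genes had 2 of 18 called lower and 0 higher (11.1%, near the 12.3% of all genes), with a median of -0.04. Slc17a7, the vesicular glutamate transporter VGLUT1 of parallel fibres, was between 12.05 and 12.68 (median 12.27) in veh and between 11.49 and 12.03 (median 11.79) in NR, without overlap, and fell by 0.51 ± 0.09 (limma adjusted p = 0.0094). Reln, the secreted protein reelin, fell by 0.39 ± 0.10 (limma adjusted p = 0.026). Gabra6, the GABA receptor subunit that defines granule cells, gave -0.10 ± 0.10 (limma adjusted p = 0.566), and Neurod1, a granule cell transcription factor, 0.28 ± 0.10 (limma adjusted p = 0.0968).

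Among markers of the other cell types, Calb2 of unipolar brush cells fell by 0.38. Pdgfrb and Vtn, both of mural cells, fell by 0.32 and 0.31 as 2 of 16 vascular genes (12.5%). Gpr34 rose by 0.51 as 1 of 17 microglial genes (5.88%), where 12.3% of all genes were called. Of 6 forebrain genes Neurod6 fell by 0.53. Calb2 gave -0.36, Pdgfrb -0.24, Vtn -0.25 and Neurod6 -0.43 on arrays with Y-gene signal, where none of them was called (limma adjusted p between 0.0674 and 0.139). No gene was called among 12 markers of inhibitory interneurons, 16 of Bergmann glia and astrocytes, 12 of oligodendrocytes (median 0.23), 13 of their precursors, 11 of meningeal fibroblasts (median -0.24), 10 of choroid plexus and ependyma, 5 of red blood cells and 6 of brainstem neurons. Of these 8 lists, limma gave between 0 and 4 genes each at an unadjusted p under 0.05.

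Among genes of stress and damage, Trp53, the p53 gene, was between 8.80 and 9.38 (median 8.96) in veh and between 8.08 and 8.91 (median 8.51) in NR and fell by 0.55 ± 0.12 (limma adjusted p = 0.0157), with -0.52 on the arrays with Y-gene signal (limma adjusted p = 0.0565). Cdkn1a, the p53 target p21, was between 9.44 and 11.64 (median 9.78) in veh and between 9.17 and 9.52 (median 9.29) in NR and fell by 0.75 ± 0.22 (limma adjusted p = 0.048), by 0.36 in WT and 1.13 in Atm-/-. They were the 2 called of 16 senescence genes (12.5%), and Cdkn1a the 1 of 14 p53 targets (7.14%). Neither share stands out from the 12.3% of all genes. Of 24 DNA repair genes 3 were called (12.5%), also near the share of all genes. H2ax, the histone that ATM phosphorylates at breaks, rose by 0.33, and Xrcc1 and Apex1 of base excision repair fell by 0.24 and 0.21. Xrcc1 gave -0.19 (limma adjusted p = 0.119) and Apex1 -0.15 (limma adjusted p = 0.211) on arrays with Y-gene signal. None was called of 23 genes of cGAS-STING and interferon signalling, 15 of inflammation, 17 of antioxidant defence, 18 immediate early genes and 20 of cholesterol synthesis, with between 1 and 4 genes each at an unadjusted p under 0.05. Plk1, a mitotic kinase, fell by 0.45 as the 1 called of 19 cell cycle genes (5.26%), and gave -0.32 on the arrays with Y-gene signal (limma adjusted p = 0.106). Of 27 collagens and elastic fibre genes 2 fell (7.41%), Col6a1 and Ltbp3, which binds latent TGF-beta. Ltbp3 went from between 12.85 and 13.21 (median 13.03) to between 12.45 and 12.74 (median 12.65), without overlap, by 0.39 ± 0.06 (limma adjusted p = 0.00644).

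In the circadian clock 1 of 16 genes was called higher and 3 lower (25%, against 12.3% of all genes), and the median was 0.01. Nr1d1, the repressor REV-ERB alpha, was between 10.80 and 11.57 (median 11.10) in veh and between 10.54 and 10.83 (median 10.62) in NR and fell by 0.47 ± 0.10 (limma adjusted p = 0.0129). Arntl, which encodes BMAL1, the activator of the loop, fell by 0.26 ± 0.07 (limma adjusted p = 0.0264), and Per1, a repressor of it, by 0.33 ± 0.09 (limma adjusted p = 0.0307). Tef, a PAR bZip output factor, rose by 0.27 ± 0.07 on its brightest probe (limma adjusted p = 0.0348) and fell by 0.26 on another (limma adjusted p = 0.0116). Per1 gave -0.32 on arrays with Y-gene signal (limma adjusted p = 0.0819). The brightest Tef probe gave 0.26 there (limma adjusted p = 0.105). The time of day of sampling is not given in the sources used here. CLOCK and BMAL1 bind the E-box CACGTG and REV-ERB proteins a site around AGGTCA, so the 250 bases before the first listed start of these 4 called genes are shown (RefSeq, GRCm38.p6, written 5′ to 3′ on the strand of the gene). Capitals mark these motifs on either strand.
Nr1d1, chr11:98775378-98775627, reverse strand: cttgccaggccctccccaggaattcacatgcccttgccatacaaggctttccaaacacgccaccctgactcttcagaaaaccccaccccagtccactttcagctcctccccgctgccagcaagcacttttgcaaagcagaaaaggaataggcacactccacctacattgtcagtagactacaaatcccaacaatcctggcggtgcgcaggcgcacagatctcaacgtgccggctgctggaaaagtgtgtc
Per1, chr11:69098699-69098948, forward strand: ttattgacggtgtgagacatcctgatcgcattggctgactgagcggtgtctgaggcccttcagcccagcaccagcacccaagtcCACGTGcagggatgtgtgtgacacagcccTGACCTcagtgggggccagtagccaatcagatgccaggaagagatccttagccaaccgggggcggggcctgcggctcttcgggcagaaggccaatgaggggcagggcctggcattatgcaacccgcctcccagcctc
Arntl, chr7:113207215-113207464, forward strand: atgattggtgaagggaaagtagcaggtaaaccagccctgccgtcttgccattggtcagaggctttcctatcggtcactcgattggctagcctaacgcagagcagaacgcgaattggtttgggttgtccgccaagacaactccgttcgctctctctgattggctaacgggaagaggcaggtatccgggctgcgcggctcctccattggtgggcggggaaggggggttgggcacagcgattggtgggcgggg
Tef, chr15:81802423-81802672, forward strand: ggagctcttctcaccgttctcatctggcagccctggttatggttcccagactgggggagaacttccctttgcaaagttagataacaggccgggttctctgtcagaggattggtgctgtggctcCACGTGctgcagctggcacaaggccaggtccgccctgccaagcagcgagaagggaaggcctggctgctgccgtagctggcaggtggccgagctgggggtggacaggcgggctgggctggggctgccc

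The window of Per1 holds 1 CACGTG and 1 AGGTCA, written TGACCT on the strand shown, and that of Tef 1 CACGTG. No match was found in the windows of Nr1d1 and Arntl. The motifs do not overlap in these windows. Of 32851 promoters in the same table, 6.02% hold CACGTG and 14% AGGTCA in the same 250 bases, so these letters are common and mark no binding here.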

How the data were processed

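Cerebellar RNA of 16 mice was measured on 16 Agilent arrays, grouped by the labels. The files deposited for single arrays come from Agilent Feature Extraction 12.0.3.1 and give each spot's intensity less its local background, with no scaling across arrays. A deposited table of scores, which are z-scores of quantile-normalized log signals, served as an alternative.

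Probes were named through accessions with RefSeq genes of GRCm38.p6, which named 32994 of 56605 probes (58.3%). The design names another build, so the table served only for names, gene order and promoters. A probe was kept if it was well above background on every array of some group (4 arrays). Their log2 signal was quantile normalized, outlier spots were left out, and 37253 probes entered limma 3.58.1 under R 4.3.3 (treatment plus genotype, Benjamini-Hochberg adjusted p under 0.05). An interaction model tested the difference between genotypes. The number of arrays limits the precision, as do the 34945 to 42559 probes well above background per array. Both models were first checked on simulated arrays.

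Named genes were the 10 largest rises and 10 largest falls among called, named probes with the same sign in both genotypes, the genes the study names for the arrays, and up to 4 members of each list. The same rule among probes detected on all 16 arrays, the genes of smallest p, and genes picked by their pattern over arrays or called within a list beyond those 4 were added after the data were seen. The values of 1 list member are not reported here. Lists use the brightest probe of a gene. Gene lists and comparisons were chosen with earlier results of these data known. Motifs were counted on both strands. Alternatives are given in the closing section.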

Additional observations from a re-analysis of the deposited data

Results flagged for a closer look

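In 228 groups of 4 arrays tested over the named genes, 8 (3.51%) held 1 array whose gap to the nearest of the others was large for the range of the group, where chance gives about 1 in 20. The values are log2 levels. In WT NR 2, 4933436H12Rik stood at 9.02 against 4.498 to 4.996 on the other 3 arrays of its group, and Pax7 at 7.01 against 4.94 to 5.18. In Atm-/- veh 3, which lacked Y-gene signal, Cldn3 stood at 5.92 against 7.07 to 7.09 and Car8 at 13.47 against 13.93 to 14.001. In Atm-/- veh 2, 6330407A03Rik stood at 5.55 against 6.82 to 6.94. In WT NR 4, also without Y-gene signal, Amhr2 stood at 10.12 against 7.58 to 7.91. Col6a1 stood at 10.24 in Atm-/- NR 3 against 9.32 to 9.39, and Spaca6 at 9.05 in WT veh 1 against 8.69 to 8.73.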

How the results depend on the processing

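Over both genotypes 3699 probes were called. Counts stayed within 1.5 times of it with 75th percentile scaling, normexp, the deposited z-scores (4178, of which 39.5% higher, against 49.6%), no filter on dim probes, a filter on all 16 arrays, the sex signal as a covariate, no genotype term, 4 group means, eBayes with trend and robust, and the methods' t-test after Benjamini-Hochberg adjustment, and, chosen after seeing the data, with a spatial correction within each array. Only arrays with Y-gene signal gave 2527. The count was 0 with the share of probes well above background as a covariate (4930 at an unadjusted p under 0.05), 0 within WT alone and 0 without NR arrays 2 and 3 of each genotype, which was also chosen after seeing the data. It was 5827 with array weights, 10350 by the methods' t-test unadjusted and 1564 by the rule of the methods (z-ratio, z-test and ANOVA thresholds on z-scores), of which 902 are shared and 409 are higher. Replicate numbers did not pair the arrays (correlations of deviations from -0.15 to 0.16). With the replicate number as a block 3057 probes were called, with a block within genotype 106. The cause of these differences was not tested. With 1 array left out the count ran from 1781 to 4790, and fell by over 1.5 times without array 1 (1781) or 4 (1854) of Atm-/- veh, or array 2 (2009), 3 (1922) or 4 (1974) of Atm-/- NR. The difference in probes well above background ran from -3380 to -2540. The difference between genotypes was not run with the block within genotype, no genotype term, 4 group means, 1 genotype alone, the methods' t-test or their rule. In the settings run for it the count was 0, the replicate block included, but 2 on arrays with Y-gene signal (probes without a gene name). No gene named below was called without NR arrays 2 and 3 of each genotype, where Klhl1 gave 0.65 and Kcnj2 0.41. Fits that leave out 1 array do not test dependence on those arrays together. Car8, Klhl1, Syt10, Tgfb1i1, Cldn3, Spock3, Pdhb, Fh1, Mdh1, Slc17a7, Nr1d1, Trp53, Ltbp3, Kcnj2, Parp3, Sirt6 and Atp6v1g3 were called with any 1 array left out. The call was lost in 13 of 16 such fits for Cdkn1a, Gpr34 and Apex1, in 12 for Gdpd3, Nmnat2, Calb2 and Stim1, in 10 for Amhr2, Prph, Vtn, Gabpa, Hspe1 and Gabra4, in 9 for Foxp2, Col6a1, Tnks and Grik5, in 8 for Tef and Olfr1375, in 6 for Atg12 and Hsf1, in 5 for Arntl and Per1, in 4 for Olfr1198, Atp6v0b and Plk1, in 3 for Reln, Slc12a8 and Xrcc1, in 2 for Adgrg3 and in 1 for Aox1. On arrays with Y-gene signal, Gdpd3, Col6a1, Adgrg3, Slc12a8, Trp53, Igf2, Prph, Amhr2, Chdh, Calb2, Pdgfrb, Vtn, Neurod6, Aox1, Ndufa4, Atp5c1, Gabpa, Atg12, Hspe1, Per1, Tef, Stim1, Xrcc1, Apex1, Hsp90aa1, Plk1, Grik5, Psma6 and Olfr1375 kept their direction and lost their call.

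None of the genes whose log2 change turned sign had been called. With 1 array left out, Spaca6 ran from -0.166 to 0.011, Hbb-bt from -0.439 to 0.079 and Hba-a1 from -0.273 to 0.035, each positive only without Atm-/- veh 3. Only arrays with Y-gene signal gave 0.129 for Spaca6, -0.141 for St14, 0.072 for Alas2, 0.168 for Hbb-bt and 0.123 for Hba-a1, and the sex covariate -0.017 for St14. With the share of probes well above background as a covariate Pign gave 0.043, Spaca6 0.090, Hmmr 0.072, St14 -0.012, Cd209d 0.0016 and Tmem212 -0.594. Within WT alone Pign gave 0.216, Spaca6 0.0061, Hmmr 0.097, Cd209d 0.076 and Tmem212 -0.339. Within Atm-/- alone Atm gave 0.064, St14 -0.126 and Slc18a3 -0.011. Without NR arrays 2 and 3, Hmmr gave 0.036, Slc18a3 -0.090 and Th 0.0047.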
